A study of Mus musculus with 12 samples.

Results

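Ido1 encodes indoleamine 2,3-dioxygenase 1, and it was 1 of the 770 genes on the panel. It was chosen by its own values in these tumors, a higher level with each drug and a combination level below the sum of both rises, so its levels, differences and gap to the additive level are given as a description and without a test. CT26 cells, from a mouse colon carcinoma, were inoculated in the flank of BALB/c mice. RNA of the whole tumor was read on the nCounter system, in which each gene's molecules are counted by a coded probe. The 12 tumors fell into 4 groups of 3 and were taken on day 4, which the study counts from the first dose and not from inoculation. Vehicle mice received neither drug. DSP-0509 mice received 5 mg/kg of this agonist of TLR7, a receptor for single-stranded RNA, intravenously. Anti-PD-1 antibody mice received 200 µg/mouse of clone RMP1-14 intraperitoneally, and combination mice received both agents at these doses. The mice were 6 to 10 weeks old. Tumor volume at grouping was 130 to 170 mm3 by the sample labels and about 100 mm3 by the study's methods. CT26 is a single cell line grown under the skin, which limits these groups as a model of other tumors.

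IDO1 opens the ring of the amino acid tryptophan, the first and rate-limiting step of the pathway to kynurenine. Loss of tryptophan and gain of kynurenine restrain T cells, and the gene is known as one of the most strongly IFNγ-induced genes, in tumor cells as well as in dendritic cells, macrophages and endothelium. Its induction in an inflamed tumor is therefore described as a feedback that follows T cell activity, alongside that of the PD-1 ligand gene Cd274. In mouse, 2 other enzymes can start the same pathway, TDO2 in liver and the paralog IDO2, whose gene is the direct neighbour of Ido1 on the chromosome. Ido2 had no probe on this panel.

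Total counts per tumor ran from 750416 to 1155698. The negative control probes, which match no mouse RNA, averaged 6.25 to 12.5 counts per tumor. The deposited values are counts multiplied by a single factor per tumor, here called normalized counts, and no background was subtracted from them. Of 750 endogenous genes, 646 had at least 20 normalized counts in at least 3 tumors and were tested with limma on log2(value + 1). Low genes change by less on this scale than their counts do. Genes with a Benjamini-Hochberg adjusted p under 0.05 over the whole table were called. Most of this immune panel shifted upward, and the median log2 difference from vehicle over all genes tested was 0.34 in the combination, 0.20 under DSP-0509 and 0.18 under anti-PD-1 antibody. Log2 differences below are to be read against these medians. The tumors numbered 1 stood apart in some genes. The neutrophil chemokine gene Cxcl1 had 504 to 1335 normalized counts in them and 95.03 to 493 in the others, its highest value in each group was that of tumor 1, and it was named after its values were seen.

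Ido1 was low in vehicle tumors and higher in every treated tumor. In vehicle tumors it had 24.9, 39.2 and 23.6 normalized counts in tumors 1, 2 and 3, a mean of 29.3 ± 8.66 (SD, n = 3). These values stood on only 24, 42 and 26 counted molecules, 2.23 to 4.54 times the mean of the negative probes, so part of the vehicle signal is background. With DSP-0509 it had 116, 82.9 and 142 normalized counts, a mean of 114 ± 29.8 (SD, n = 3). With anti-PD-1 antibody it had 69.5, 77.3 and 94.4, a mean of 80.4 ± 12.7 (SD, n = 3). In the combination it had 86.6, 147 and 152, a mean of 129 ± 36.5 (SD, n = 3). The lowest treated tumor of each group lay above the highest vehicle tumor, by 1.77 times for anti-PD-1 antibody, 2.11 times for DSP-0509 and 2.21 times for the combination. Over all genes tested, the treated and vehicle tumors did not overlap, with the treated higher, in 38.5% of genes in the combination, 16.4% under DSP-0509 and 12.4% under anti-PD-1 antibody, and with the treated lower in 6.35%, 3.72% and 2.01%. Ido1 was picked on these contrasts, so nothing is read from that. Among the treated groups the values of Ido1 overlapped.

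**Figure D1:**
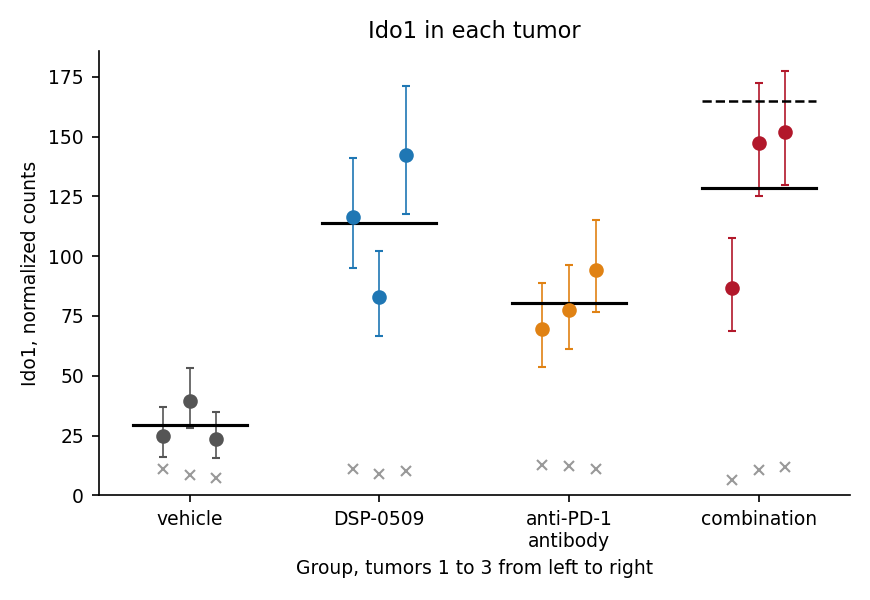
Normalized counts of Ido1 (linear axis) in the 3 tumors of each group; points are tumors, thin bars are 95% exact Poisson intervals of the molecules counted, black lines are group means, crosses are the mean of the negative control probes on the same scale, and the dashed line is the additive level of 165. The vehicle tumors lie at 23.6 to 39.2 and the treated tumors at 69.5 to 152.

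The mean of Ido1 was 3.89 times that of vehicle with DSP-0509, 2.75 times with anti-PD-1 antibody and 4.39 times in the combination. On the log2 scale the differences of group means were 1.93, 1.45 and 2.09, against a pooled SD within groups of 0.37. With the mean of the negative probes subtracted in each tumor, the ratios were 5.11, 3.36 and 5.85. The order of the means was vehicle, anti-PD-1 antibody, DSP-0509 and combination. Only the step from vehicle to the next group was free of overlap. The combination was 1.13 times the DSP-0509 mean, a log2 difference of 0.16, and the combination tumor was the higher in 7 of 9 pairs of tumors. This order turned after median centring of the tumors (-0.17) or after quantile normalization (-0.19), and without DSP-0509 tumor 2 the log2 difference was -0.04. DSP-0509 exceeded anti-PD-1 antibody in 8 of 9 pairs and by 0.47 on the log2 scale. Combination tumor 1, at 86.6, lay below 2 of the DSP-0509 tumors and below anti-PD-1 antibody tumor 3.

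In each group of 3 tumors the spread was above what counting error gives, by most in the DSP-0509 and combination groups. Within DSP-0509 the highest tumor was 1.72 times the lowest, on 115 and 89 counted molecules, and the coefficient of variation was 26.2% where counting alone gives 9.91%. Within the combination it was 28.4% against 8.94%. Vehicle tumors varied by 29.6%, where counting alone gives 18.5%, and anti-PD-1 antibody tumors by 15.8% against 11.3%. With 3 tumors per group these smaller excesses are uncertain. Total counts were lowest in DSP-0509 tumor 3, where Ido1 was highest in its group, and highest in combination tumor 3. All intervals and these percentages cover counting error only.

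Of the 646 genes tested, Ido1 had the largest difference from vehicle with DSP-0509 and the next to largest with anti-PD-1 antibody, where Lbp, which encodes a lipopolysaccharide-binding protein, stood above it at a log2 difference of 1.62. In the combination it was in place 7, and the complement factor gene Cfd, named after its values were seen, led at 2.81 without passing the test (adjusted p = 0.330 from limma).

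If the effects had added on the log2 scale, the combination would have stood 3.38 above vehicle, and it stood 2.09 above. The gap of -1.29 was the lowest of all 646 genes, whose median gap was -0.0028. If the normalized counts themselves had added, the combination mean would have been 165, and it was 129, a gap of -36.3 counts or 0.78 of the additive level. DSP-0509 alone reached 85.1% of the combination's rise and anti-PD-1 antibody alone 51.4%. The gap has a size on each scale, and the linear gap is comparable to the SD of 36.5 within the combination. Without combination tumor 1 the gaps were -1.03 and -15.3. Both gaps stayed below 0 with each tumor left out in turn. The lowest place did depend on single tumors, since Ido1 moved to place 8 of 646 without vehicle tumor 3.

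Over all genes tested, 325 of 646 (50.3%) had a gap below 0. Of 376 genes with a higher mean in both monotherapies, 256 (68.1%) had a gap below 0, with a median of -0.11. Of the 16 genes at least doubled with each drug, Ido1 included, 14 (87.5%) had one, with a median of -0.61. Next to Ido1 stood the granzyme gene Gzma at -1.23, Lbp at -1.06, the CXCR3 ligand gene Cxcl11 at -0.83, the IL-15 receptor gene Il15ra at -0.78 and the CXCR3 ligand gene Cxcl9 at -0.77. Cfd and the chemokine gene Cxcl12 were the exceptions, at 0.11 and 0.07. Il15ra, Cxcl12 and Cfd were named after their values were seen. The same vehicle tumors enter both differences and the gap, so choosing genes by high differences also chooses for a low gap. In the test of the interaction over the whole table, limma called 0 of the 646 genes (0%), and 9 (1.39%) had an unadjusted p under 0.05.

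**Figure D2:**
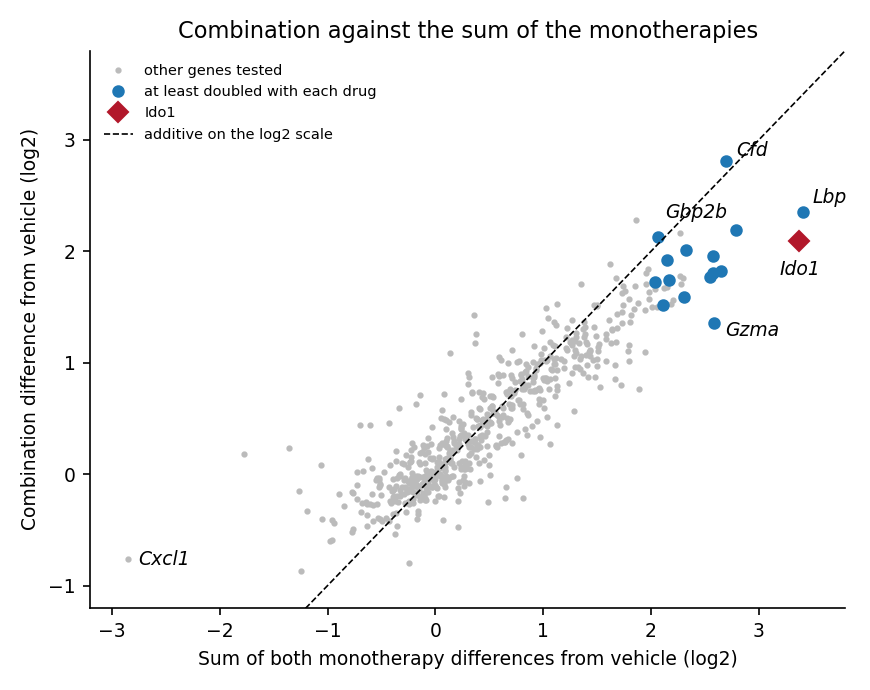
Log2 difference of the combination from vehicle (vertical) against the sum of the log2 differences of both monotherapies (horizontal) for 646 genes; the dashed line marks additivity on the log2 scale. Ido1 lies farthest below the line, at 3.38 and 2.09, and 13 of the other 15 genes that were at least doubled with each drug (blue) lie below it too.

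The other tryptophan-degrading enzyme on the panel was at background. Tdo2 had 4.28 to 17.84 normalized counts over all 12 tumors, with group means of 10.5 (vehicle), 10.2 (DSP-0509), 10.3 (anti-PD-1 antibody) and 11.5 (combination), the level of the negative probes, and it did not enter the test.

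The 8 highest Pearson correlations of log2 values with Ido1 over the 12 tumors belonged to Psmb9, a subunit of the immunoproteasome (r = 0.96, Spearman's rho = 0.96), the perforin gene Prf1 (0.96), the guanylate-binding protein gene Gbp5 (0.95), the MHC class I heavy chain gene H2-K1 (0.95), the granzyme gene Gzmb (0.93), the immunity-related GTPase gene Irgm2 (0.93), and Tap1 (0.93) and Tap2 (0.92), which encode the peptide transporter. These values are descriptions over 12 tumors that share groups, scaling factors and depth. The median r of the other 645 genes was 0.39, so a positive correlation was the rule on this panel, and 17 genes stood above 0.9. Vehicle tumors 1 and 3 carried much of that, and without these 2 tumors 1 gene, Psmb9, stayed above 0.9, at 0.95. The lowest correlations belonged to the kinase gene Map2k4 (-0.86), the integrin β1 gene Itgb1 (-0.84) and Mfge8 (-0.83), which encodes a bridge protein for the uptake of dying cells.

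The tumor values show how close the likeness was. Psmb9 had 942, 1407 and 1287 normalized counts in vehicle tumors, 2260, 2133 and 2949 with DSP-0509, 1680, 2160 and 2328 with anti-PD-1 antibody, and 2154, 2580 and 3059 in the combination. As with Ido1, DSP-0509 tumor 3 led its group and combination tumor 1 was the lowest of its own. Prf1 had 153, 275 and 153 in vehicle tumors, 505, 353 and 518 with DSP-0509, 327, 324 and 401 with anti-PD-1 antibody, and 530, 487 and 607 in the combination. Vehicle tumor 2 and DSP-0509 tumors 1 and 3, high for Ido1 in their groups, were high for Prf1 also. Gbp5 had 403, 680 and 463 in vehicle tumors, 1414, 1384 and 1350 with DSP-0509, 841, 1234 and 1243 with anti-PD-1 antibody, and 1653, 1927 and 2328 in the combination. Its DSP-0509 tumors were almost level, unlike those of Ido1, and all 3 combination tumors lay above all tumors of the other groups.

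**Figure D3:**
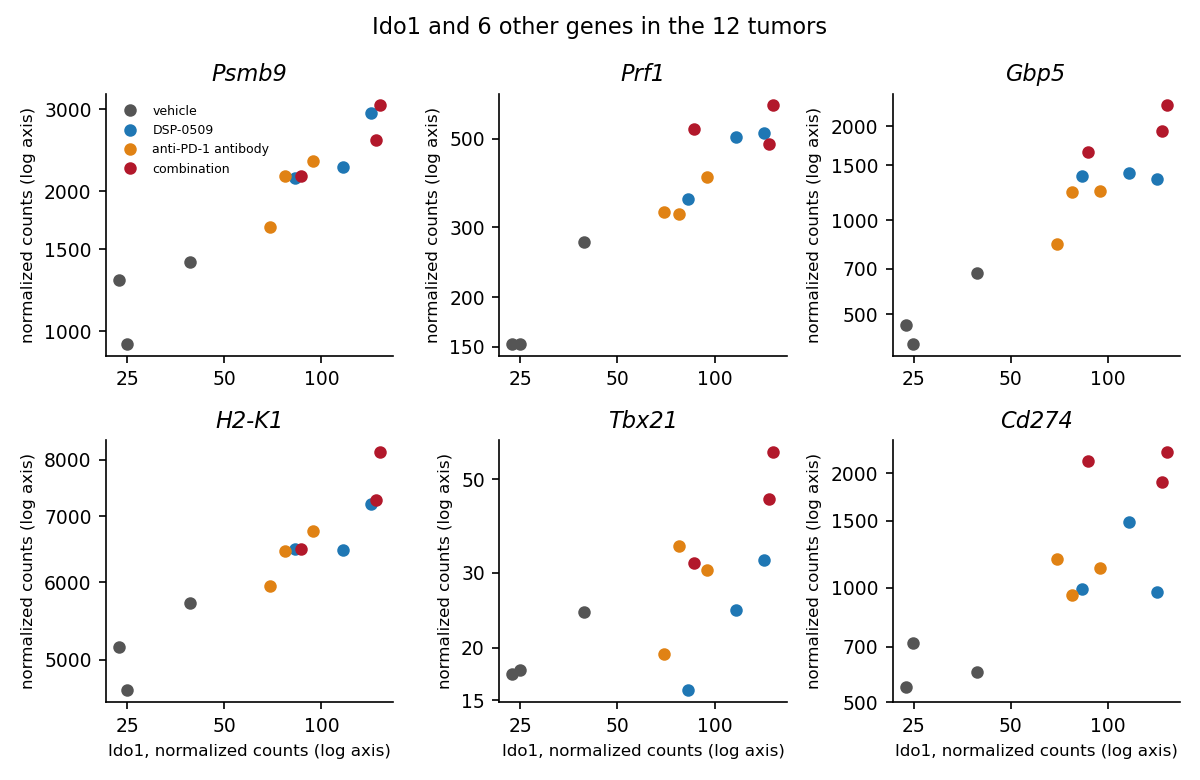
Normalized counts of 6 genes (vertical) against Ido1 (horizontal) in the 12 tumors, both on log axes; a point is a tumor, coloured by group. Psmb9 and H2-K1 follow Ido1 across and within groups, while Cd274 is high in all 3 combination tumors whatever their Ido1 level.

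Promoter windows of the like genes are shown because these genes moved together and 2 of them hold the motifs that bear on interferon signalling. RefSeq windows (GRCm38.p6, 250 bases before the start of the transcript) were matched for 7 of the 8 genes. Each was searched on both strands for the element of the IFNγ response (GAS, TTCNNNGAA, which reads the same on either strand) and for the element of the type I interferon response (ISRE, a pair of GAAA with any 2 bases between them). No match of one motif overlapped one of the other in the windows below, where capitals mark the matches, 5′ to 3′ on the strand of the gene.
Gbp5, chr3:142496684-142496933, plus strand: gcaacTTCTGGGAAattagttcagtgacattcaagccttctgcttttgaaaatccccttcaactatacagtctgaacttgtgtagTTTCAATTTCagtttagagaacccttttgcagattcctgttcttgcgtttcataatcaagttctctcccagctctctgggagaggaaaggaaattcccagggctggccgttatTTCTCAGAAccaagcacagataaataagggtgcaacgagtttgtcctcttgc
Irgm2, chr11:58214727-58214976, plus strand: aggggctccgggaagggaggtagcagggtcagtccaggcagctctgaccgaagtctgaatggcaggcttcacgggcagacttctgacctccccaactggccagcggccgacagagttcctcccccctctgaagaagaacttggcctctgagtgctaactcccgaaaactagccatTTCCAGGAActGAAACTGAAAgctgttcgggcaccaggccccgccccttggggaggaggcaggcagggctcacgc
Psmb9, chr17:34187331-34187580, minus strand: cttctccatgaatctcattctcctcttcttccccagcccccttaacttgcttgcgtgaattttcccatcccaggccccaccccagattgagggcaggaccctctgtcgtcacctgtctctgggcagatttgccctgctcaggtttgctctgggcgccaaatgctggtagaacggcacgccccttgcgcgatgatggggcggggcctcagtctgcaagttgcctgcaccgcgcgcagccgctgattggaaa
Gbp5 held 2 GAS matches and an ISRE match, and Irgm2 held both motifs next to each other. Psmb9, the gene with the highest correlation, is shown for contrast, with no match of these letters in its window. Its window and that of Tap1 lie over each other on opposite strands. Of all 32851 RefSeq windows, 7.02% held GAS and 2.98% held ISRE, and of the 588 windows of genes tested here 10.7% and 6.63% did. A match is a string of letters and not a site.

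Within groups the likeness was weaker and fell on other genes. After the group mean was taken from each tumor, the highest correlations with Ido1 belonged to Tbx21, the transcription factor of type 1 T cells and NK cells (0.86), the cytokine gene Il15 (0.86), the costimulatory receptor gene Tnfrsf18, which encodes GITR (0.84), H2-K1 (0.84) and the interferon-induced gene Ifitm1 (0.82). The lowest belonged to the β-glucan receptor gene Clec7a (-0.81), Mfge8 (-0.72) and the transcription factor gene Xbp1 (-0.72). H2-K1 was the only gene among the highest on both measures. Over the other 645 genes the correlations within groups had a median of 0.20 and a 95th percentile of 0.64. The named genes are the extremes of these 645 values over 12 tumors, and their relation to Ido1 was not tested. Tbx21 had 17.7, 24.3 and 17.3 normalized counts in vehicle tumors, 24.6, 15.8 and 32.2 with DSP-0509, 19.3, 34.7 and 30.5 with anti-PD-1 antibody, and 31.7, 44.8 and 57.9 in the combination. In the vehicle, DSP-0509 and combination groups the order of tumors by Tbx21 was that by Ido1, and in the anti-PD-1 antibody group tumors 2 and 3 changed places. Tbx21 was low, and the highest negative probe of each tumor had 12 to 21 counts. The order of vehicle tumors 1 and 3 rested on 17.7 against 17.3 for Tbx21, and Ido1 had 24 and 26 counted molecules in them. By the size of the 3 differences from vehicle, the genes nearest to Ido1 were Lbp, Gbp2b, another guanylate-binding protein gene, Cxcl11, Gbp5 and Cxcl9, with a root mean square distance of 0.20, 0.27, 0.34, 0.34 and 0.37. Lbp was near in its group means only, with r = 0.59 over tumors and -0.29 within groups, and vehicle tumor 3 had 201 normalized counts of it against 23.9 and 32.7 in the other vehicle tumors.

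Limma called 142 of the 646 genes in the combination (22.0%), 139 of them higher (21.5%) and 3 lower (0.464%), 5 with DSP-0509 (0.774%, all higher) and 0 with anti-PD-1 antibody (0%). These background counts hold Ido1, from whose own result nothing is read. Counts of list members that rose, given below, are to be read against these shares of all genes tested. At an unadjusted p under 0.05 the counts were 244 (37.8%), 105 (16.3%) and 83 (12.8%). The calls with DSP-0509 on genes other than Ido1 were Gbp2b, Gbp5, Prf1 and the IL-12 receptor gene Il12rb2, which was named after its values were seen. The split of the 142 depended on the scaling, with 65 higher and 67 lower genes after quantile normalization and 63 higher and 136 lower after median centring. With the tumor number as a block, 32 genes were called with anti-PD-1 antibody, all higher, where same-numbered tumors deviated together from their group means.

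Of 9 genes for IFNγ, its receptor and its signalling, 5 rose in the combination and 0 fell, and the median log2 difference was 1.10 against 0.34 over all genes tested. The count was 3 without vehicle tumor 1, vehicle tumor 2 or combination tumor 3, and after quantile normalization. Ifng itself was low, at 12.5, 12.2 and 20.9 normalized counts in vehicle tumors, 33.5, 20.5 and 21.1 with DSP-0509, 19.3, 36.7 and 39.3 with anti-PD-1 antibody and 30.6, 33.6 and 70.0 in the combination. Its mean was higher with anti-PD-1 antibody than with DSP-0509, but the tumors of these groups overlapped. The vehicle values were close to background, as the highest negative probe of each vehicle tumor had 12 to 17 counts. The lower monotherapy values were near it too. The highest negative probe had 16 to 20 counts in DSP-0509 tumors and 17 to 21 in anti-PD-1 antibody tumors. The part of Ifng in the level of Ido1 was not tested. Ifng rose in the combination (log2 fold change 1.44, standard error 0.38, adjusted p = 0.0236 from limma). That call ended without 3 single tumors in turn, after quantile normalization and with only the 2 groups compared. Irf1, a transcription factor gene induced by IFNγ, had 2217 to 2457 normalized counts in vehicle tumors and 4985 to 5941 in the combination and rose by 1.26 (standard error 0.15, adjusted p = 8.78e-04 from limma). Nlrc5 and Ciita, the activators of MHC class I and class II genes, rose by 1.10 and 1.73, and Ciita lost its call without any of 7 single tumors. The Ciita call also ended after quantile normalization, median centring or background subtraction and with only the 2 groups compared. The receptor gene Ifngr1 (0.15), the kinase genes Jak1 (0.14) and Jak2 (0.02) and the factor gene Irf8 (0.86) did not pass. With either monotherapy 0 of the 9 genes passed, and the median was 0.69 with DSP-0509 and 0.65 with anti-PD-1 antibody.

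Of 15 genes induced by IFNγ, which act beside Ido1, 14 rose in the combination, against 21.5% of all genes tested. The median was 1.16. After quantile normalization 12 of the 15 passed, after median centring 11, and without vehicle tumor 1 or combination tumor 3 it was 10. With the test that the methods name 2 passed. All 15 passed after housekeeping rescaling, with array weights or with the tumor number as a block. Gbp2b led at 2.20 (standard error 0.24, adjusted p = 7.45e-04 from limma), followed by Gbp5 at 1.95, Cxcl11 at 1.82 and Cxcl9 at 1.81. At the lower end were Tap1 at 1.06, Tap2 at 1.02 and the immunoproteasome gene Psmb8 at 0.98, and the Fc receptor gene Fcgr1 did not pass at 0.76 (adjusted p = 0.144 from limma). With DSP-0509 2 of the 15 passed, Gbp2b at 1.49 and Gbp5 at 1.46 (adjusted p = 0.0193 from limma for each), and the median was 1.02. That count was 11 after rescaling to the housekeeping genes, 6 after quantile normalization, 9 without anti-PD-1 antibody tumor 1, and 0 without vehicle tumor 1, vehicle tumor 3 or DSP-0509 tumor 1. With anti-PD-1 antibody 0 passed, with a median of 0.77, and with the tumor number as a block Gbp2b, Gbp5, Cxcl9, Cxcl10, Cxcl11, Cd274, Psmb9 and Tap1 did. The median gap to the additive level over the 15 genes was -0.57, against -1.29 for Ido1 and -0.0028 over all genes tested. Cd274 was the member whose gap was the farthest above that of Ido1, at 0.08, with 550 to 714 normalized counts in vehicle tumors, 976 to 1488 with DSP-0509, 954 to 1191 with anti-PD-1 antibody and 1897 to 2271 in the combination. Its combination tumors lay above all others, which those of Ido1 did not, and its correlation with Ido1 within groups was -0.01.

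**Figure D4:**
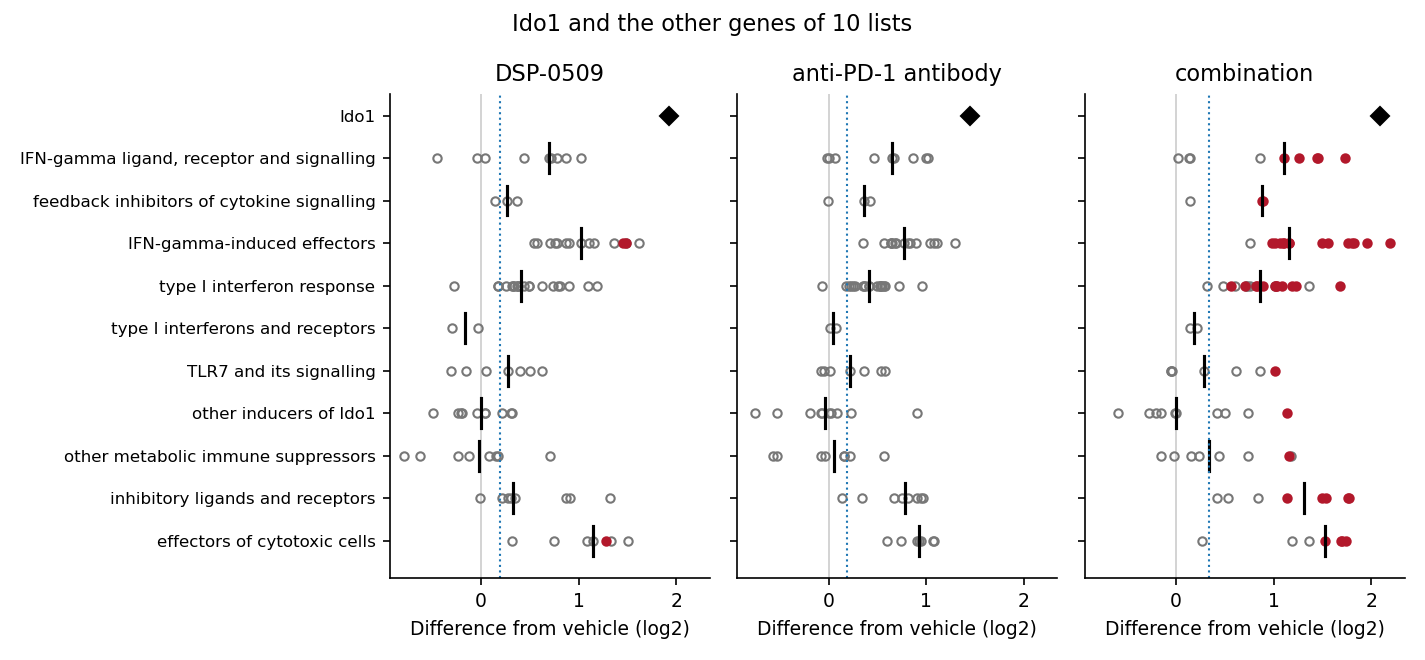
Log2 differences from vehicle of the tested genes of 10 lists with each treatment; filled red points passed limma at an adjusted p under 0.05, open points did not, short black bars are list medians, the dotted line is the median of all 646 genes and the black diamond is Ido1, for which no test is read. In the combination 14 of 15 IFNγ-induced effectors passed, against 2 with DSP-0509 and 0 with anti-PD-1 antibody.

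The feedback inhibitors of cytokine signalling rose in part. Socs1, which blocks JAK kinases, rose in the combination by 0.89 (adjusted p = 0.0269 from limma), and Usp18, which dampens the type I interferon receptor, by 0.89 (adjusted p = 0.0290 from limma), while Socs3, which dampens IL-6 type signals, stood at 0.15. Both calls ended after quantile normalization and after median centring, and each ended without any of 4 single tumors, both of them without vehicle tumor 1, combination tumor 2 or combination tumor 3. With the monotherapies 0 of these 3 genes passed. Socs1 had 332 to 675 normalized counts with DSP-0509 and 407 to 548 with anti-PD-1 antibody, which overlapped vehicle tumors at 339 to 446.

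Of 20 tested genes of the type I interferon response, 12 rose in the combination, with a median of 0.86, and 0 with either monotherapy, with medians of 0.41 for each. Zbp1, a sensor of left-handed nucleic acids, rose by 1.68 and the antiviral genes Ifit3 by 1.23 and Oas3 by 1.19, and the helicase gene Ddx58 (0.49) and the nuclease gene Isg20 (0.32) were at the lower end and did not pass. The median gap of the list to the additive level was -0.0031, close to that of all genes tested. Ido1 was picked for a low gap, so nothing is read from the distance of any list's gap to that of Ido1. The count of 12 was 5 after quantile normalization, 4 after median centring and 5 without vehicle tumor 1. Of the type I interferons, Ifna1, Ifna2, Ifna4 and Ifnb1 stayed between 4.67 and 20.1 normalized counts, at the level of the negative probes, and were not tested. The receptor genes Ifnar1 (0.15) and Ifnar2 (0.22) did not pass.

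Of 7 genes of TLR7 and its signalling, 1 rose in the combination, the interferon regulatory factor gene Irf7 at 1.02 (adjusted p = 0.0466 from limma), a call lost without any of 9 single tumors. Over all genes tested 21.5% rose, so nothing about the pathway is read from 1 of 7. Tlr7 had 70.7 to 149 normalized counts in vehicle tumors, 123 to 178 with DSP-0509, 81.3 to 179 with anti-PD-1 antibody and 137 to 214 in the combination, and it did not pass. The adaptor gene Myd88 (0.28), the kinase genes Irak1 (-0.05) and Irak4 (-0.04), the ligase gene Traf6 (-0.06) and Irf5 (0.86) did not pass either. The list's median of 0.28 was below that of all genes tested.

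Of 10 genes for other signals known to induce Ido1, 1 rose in the combination, Ctla4, whose protein induces IDO1 in dendritic cells through CD80 and CD86, at 1.13 (standard error 0.24, adjusted p = 0.00983 from limma), and the list ran from -0.59 to 1.13, with a median of -0.0049 and 5 of 10 below 0. Over all genes tested 21.5% rose in the combination. The call of Ctla4 ended after quantile normalization and after median centring. Ctla4 had 49.5 to 60.02 normalized counts in vehicle tumors, 57.8 to 80.5 with DSP-0509, 90.9 to 121 with anti-PD-1 antibody and 81.1 to 147 in the combination. Its part in the level of Ido1 was not tested. The costimulatory gene Cd86 (0.50) and the cytokine gene Tnf (0.74) did not pass, and Il6 (-0.59), Il1b (-0.28) and the prostaglandin synthase gene Ptgs2 (-0.16) had lower means in the combination without passing. Tnf was close to Ido1 within groups (0.72) at 54.0 to 167 normalized counts, but the list as a whole was not. The mean log2 value of the 10 listed genes correlated with Ido1 at -0.15 within groups and 0.13 over all tumors.

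Of 8 other genes by which myeloid cells and tumors restrain T cells through metabolites, 1 rose in the combination, Entpd1, whose product CD39 starts the breakdown of ATP to adenosine, at 1.16 (standard error 0.28, adjusted p = 0.0173 from limma). Its call ended without vehicle tumor 1, combination tumor 2 or combination tumor 3. Its log2 difference was 0.71 with DSP-0509 and 0.56 with anti-PD-1 antibody, neither of which passed, and its gap was -0.11. The arginine-consuming enzymes Arg1 and Arg2 and the nitric oxide synthase Nos2 stood at 0.23, 0.44 and 1.18 and did not pass. Arg1 had a lower mean with each monotherapy, at -0.79 with DSP-0509 and -0.57 with anti-PD-1 antibody, and a gap of 1.59, where that of Ido1 was -1.29. The list's median gap was 0.51, and 1 of its 8 genes rose in the combination where 21.5% of all genes tested did.

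Of 8 tested genes for inhibitory ligands and receptors, 5 rose in the combination, with a median of 1.31. They were Pdcd1, which encodes PD-1, at 1.78 (adjusted p = 0.0111), Cd274 at 1.76 (adjusted p = 7.45e-04), Lag3 at 1.53 (adjusted p = 0.00966), Pdcd1lg2 at 1.49 (adjusted p = 0.0202) and Ctla4, all from limma. The count was 3 after quantile normalization and after median centring, and Pdcd1lg2 lost its call without vehicle tumor 1 or combination tumor 3. Pdcd1 had 56.1 to 150 normalized counts in vehicle tumors and 272 to 552 in the combination. The list's median gap was -0.0015. Of 7 cytotoxic effector genes, 4 passed as higher in the combination, Fasl at 1.74, Gzmb at 1.70, Gzmk at 1.69 and Prf1 at 1.53, and 1 with DSP-0509, Prf1 at 1.28 (adjusted p = 0.0445 from limma), a call lost without any of 9 single tumors. Gzmm (0.27), Ctsw (1.19) and Gzma (1.36) did not pass. The mean log2 value of these 7 genes had the highest correlation with Ido1 within groups of the lists scored, 0.75, with r = 0.94 over the 12 tumors, and the list's median gap was -0.58.

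A list of 6 genes was taken from the qRT-PCR assays run beside that of Ido1. Of these 4 rose in the combination, Cxcl10, Gzmb and Ifng among them. Tnf stood at 0.74 (adjusted p = 0.0978 from limma) and H2-Ab1, an MHC class II gene, at 1.08 (adjusted p = 0.0669 from limma). The study chose that list for tumors of this kind, so it is not independent evidence of a direction.

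In bulk tumors a change in the number of cells that express a gene and a change in its RNA per cell cannot be told apart. The summed normalized counts of 5 T cell genes were 286 to 498 in vehicle tumors, 658 to 674 with DSP-0509, 636 to 897 with anti-PD-1 antibody and 863 to 1750 in the combination, where 4 of the 5 rose. The call of Sh2d1a, among these 4, ended without any of 9 single tumors. The sums of Cd8a and Cd8b1 were 69.6 to 127, 164 to 218, 168 to 220 and 225 to 561, and both rose in the combination. The monotherapy ranges of both sums overlapped. The calls of Cd8a and Cd8b1 held with each tumor left out in turn but ended with only the 2 groups compared. The mean log2 value of Cd8a and Cd8b1 was 6.60, 6.52 and 7.78 in combination tumors 1, 2 and 3. In anti-PD-1 antibody tumors it was 6.20 to 6.52. The leukocyte gene Ptprc had 444 to 916 normalized counts in vehicle tumors, 722 to 1169 with DSP-0509, 566 to 1191 with anti-PD-1 antibody and 1034 to 1755 in the combination (1.03, adjusted p = 0.0622 from limma). The part of these cells in the level of Ido1 was not tested.

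Of 5 tested dendritic cell genes 0 passed in the combination, and their sum ran from 338 to 487 in vehicle tumors, from 321 to 399 with DSP-0509, from 404 to 561 with anti-PD-1 antibody and from 393 to 500 in the combination. Their median log2 difference was 0.16 in the combination, 0.52 under anti-PD-1 antibody and -0.19 under DSP-0509. Itgax, which encodes CD11c, had 36.4 to 71.7 normalized counts in vehicle tumors, 33.4 to 51.2 with DSP-0509, 55.6 to 74.7 with anti-PD-1 antibody and 44.3 to 56.0 in the combination, and Lamp3, a marker of mature dendritic cells, was at background. Of 6 endothelial genes 0 passed, with sums of 1488 to 2374 in vehicle tumors, 1170 to 2353 with DSP-0509, 1344 to 2318 with anti-PD-1 antibody and 1506 to 2353 in the combination. Over all genes tested 21.5% rose in the combination. Of 5 macrophage genes 2 rose there, Cd68 (0.67) and Cd84 (0.91). The Cd68 call ended without vehicle tumor 1, combination tumor 2 or combination tumor 3, and both ended after median centring. The macrophage sums were 3208 to 5984 in vehicle tumors, 4691 to 5874 with DSP-0509, 3477 to 6326 with anti-PD-1 antibody and 5985 to 7563 in the combination. The list score, a mean of log2 values, correlated with Ido1 over the 12 tumors at 0.09 for dendritic cells, -0.05 for endothelial cells and 0.55 for macrophages, and within groups at -0.04, -0.38 and 0.15. The part of these cells in the level of Ido1 was not tested either.

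The score of the mast cell genes Cma1, Ms4a2 and Tpsab1 correlated with Ido1 at 0.72 within groups and 0.51 over the 12 tumors, and 0 of the 3 passed in any comparison. Their sum was 2139 in vehicle tumor 2 and 419 in the lowest vehicle tumor, and 2189 in the highest DSP-0509 tumor. NK cell genes were 2 of 4 above the filter, with 0 passing, and of 5 B cell genes only Cd79b was above it, with 0 passing. Of 4 neutrophil genes 2 rose, Csf3r at 1.00 and Fpr2 at 1.32, and of 4 fibroblast genes 3 rose, Col3a1 at 2.17, Col1a1 at 1.89 and Fap at 1.40, with fibroblast sums of 3082 to 18271 in vehicle tumors and 17762 to 32797 in the combination. Without vehicle tumor 1 or 2 or combination tumor 1 or 2 the fibroblast count was 0, and Col3a1 lost its call without any of 10 single tumors. Without vehicle tumor 1 or combination tumor 3, and after quantile normalization or median centring, the neutrophil count was 0. The fibroblast score correlated with Ido1 at -0.12 within groups and 0.56 over the 12 tumors. The carcinoma label was checked on 3 epithelial genes. Epcam (17.9 to 134 normalized counts) and Cdh1 (29.1 to 114) were low in all groups, and Msln, which encodes mesothelin, was at 1713 to 2550. Msln fell by 0.46 on the log2 scale in the combination (adjusted p = 0.0203 from limma), a call that ended after rescaling to the housekeeping genes and without vehicle tumor 1 or 2 or combination tumor 2 or 3, and its correlation with Ido1 over the 12 tumors was -0.81.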

How the data were processed

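RNA was extracted from homogenized tumors on a Maxwell RSC instrument. The authors counted it with a mouse PanCancer Immune Profiling kit on nCounter (750 endogenous genes, 20 housekeeping genes, 8 negative and 6 positive control probes) and processed it in nSolver 4.0. Each deposited value is a normalized signal, a count multiplied by a single factor per tumor. Values under 1 were set to 1, and control probes were left unscaled. Counts per tumor were read from the steps of the values (100% whole within 0.1) and used for depth and intervals only. How the factor was chosen is not given in the sources used here.

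Genes were tested with limma 3.58.1 in R 4.3.3 on log2(value + 1) over all 12 tumors, with no covariate. The methods name an unpaired t-test, run as an alternative. Python 3.11.15 and matplotlib 3.10.9 did the rest. The fit was tested on simulated data. Ido1 stayed in the fit and in the counts over all genes tested, but its own p-values are not read or printed. The 24 gene lists and the members were chosen with earlier results of these data known. Named genes were those most and least like Ido1, members of function lists of 7 or fewer, up to 4 at either end of longer lists, and markers. To check pairing, the deviation of each tumor from its group was correlated between tumors of one number. All pairs exceeded 0.1 between vehicle and anti-PD-1 antibody (0.18 to 0.68). They also did between the combination and DSP-0509 (0.32 to 0.59) or anti-PD-1 antibody (0.14 to 0.69). Not all did between vehicle and DSP-0509 (-0.18 to 0.37) or combination (-0.23 to 0.47), or between DSP-0509 and anti-PD-1 antibody (0.09 to 0.65). The sources do not tie the numbers to a batch. Nor do the labels say that each tumor came from a separate mouse, so p-values measure the spread between 3 tumors per group, which may be technical. Sequences are from RefSeq (GRCm38.p6). The values of 1 gene of the lists are not reported here, and it stays in the counts.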

Additional observations from a re-analysis of the deposited data

How the results depend on the processing

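Ido1 stayed above vehicle in each treated group and its gap to the additive level stayed below 0 under every alternative run. Its log2 difference moved by more than the SD within groups for DSP-0509 with background subtracted (2.34), for anti-PD-1 antibody after quantile normalization (1.01), and for the combination with background subtracted (2.53), after median centring (1.56) and after quantile normalization (1.38). With each tumor left out in turn the differences were 1.75 to 2.15 for DSP-0509, 1.32 to 1.68 for anti-PD-1 antibody, 1.95 to 2.35 for the combination, and combination minus DSP-0509 was -0.04 to 0.43. The gap was -1.51 to -1.03 on the log2 scale and -51.8 to -15.3 normalized counts. Its place from the lowest was 1 to 8 (2 with a pseudocount of 10 or background subtracted), the place of the DSP-0509 difference was 1 to 6, and 3 to 8 of the 8 most like genes were shared, with the last place and the fewest shared genes all without vehicle tumor 3. Without the 4 tumors numbered 1, a choice made after seeing the data, the gap was -0.998 and in place 9, the DSP-0509 difference was in place 2, and 5 of the 8 genes were shared. Calls with DSP-0509 numbered 11 with a pseudocount of 10, 13 with a filter of 50, 28 after housekeeping rescaling, 10 after quantile normalization, 38 with array weights, 1 with only the groups compared, 0 with the methods' t-test and 0 to 17 with a tumor left out. Calls with anti-PD-1 antibody numbered 165 with array weights and 0 to 9 with a tumor left out. Calls in the combination numbered 232 after housekeeping rescaling, 286 with array weights, 92 with only the groups compared, 4 with the methods' t-test and 59 (without vehicle tumor 1) to 174 with a tumor left out. The interaction gave 0 to 0. Under the replicate block, counts were 81, 32 and 250, and no interaction was called. The median log2 difference of all genes in the combination, 0.34, was -0.122 after quantile normalization and -0.192 after median centring. Median centring turned the sign of Jak1 (-0.40) and Ifnar1 (-0.39) in the combination and passed both as lower. A count model on the counts read from the steps of the values was planned and not run. The cause of these changes was not tested. The vehicle level of Ido1, at 24 to 42 counted molecules, limits the precision of every ratio.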
